A study of Mus musculus with 48 samples.

Results

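Adipose triglyceride lipase (ATGL, gene symbol Pnpla2), its regulators and the perilipins were followed here as a group of 9 genes named by symbol: Pnpla2, G0s2, Abhd5, Lipe, Mgll, Plin2, Plin3, Plin4 and Plin5. All 9 were among the 14125 genes of the count table, and all 9 passed the filter on low counts that kept 12592 genes for testing. RNA came from mixed gastrocnemius, a hindlimb muscle, of 48 male C57BL6J mice, and was read from transcript 3′ ends with a QuantSeq kit. Cort_ATGLi mice (n = 14) drank corticosterone at 100 ug/ml and ate food holding atglistatin, an inhibitor of ATGL, at 571 mg/kg. Cort_CON mice (n = 14) drank the same corticosterone and ate the control diet. EtOH_ATGLi mice (n = 10) drank the 1% ethanol vehicle and ate the atglistatin food, and EtOH_CON mice (n = 10) had vehicle and control diet. Treatment lasted 2 weeks in every group. The labels call 9 of the Cort_CON mice diabetic and the other 39 mice of the series nondiabetic. The labels give no ages and do not say whether the corticosterone water also held ethanol. Library p36 of Cort_CON is labelled nondiabetic with a fed glucose of 242, where the other nondiabetic mice had 95 to 159. The inhibitor was eaten and so was not limited to muscle. The labels do not say that each library is a separate mouse. Because glucose and insulin differ from library to library, each was treated as 1 mouse, and p-values measure the spread between libraries under that reading.

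Stored triglyceride sits in lipid droplets inside muscle fibres and fat cells and is broken down one fatty acid at a time. ATGL removes the first, hormone-sensitive lipase (Lipe) acts mainly on the diacylglycerol that results, and monoacylglycerol lipase (Mgll) releases the last. ATGL is activated by the protein of Abhd5 and blocked by the protein of G0s2. Perilipins coat the droplet and set the access of these enzymes. Plin5 is the perilipin of oxidative tissues such as heart and muscle and binds both ATGL and its activator, Plin2 and Plin3 are found in most tissues, and Plin4 is a coat protein of fat, heart and skeletal muscle. Corticosterone is the main glucocorticoid of mice. Atglistatin acts on the enzyme, and its effect on the enzyme's activity cannot be read from RNA.

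Total counts ran from 10453888 to 24034481 per library. CPM is a read count scaled to the size of its library after TMM normalisation. By these totals, before the TMM factor, 1 CPM rested on 10 to 24 counts. QuantSeq counts are not scaled by transcript length, so levels are compared between groups within a gene and never between genes. The muscle fibre markers, from Ckm to Myl1, summed to between 77636 and 156304 CPM in the 48 libraries, with none of the 10 at 0. Library p41 of Cort_ATGLi stood apart. It had the highest Pnpla2, Lipe, Plin2 and Plin3 and the lowest G0s2 and Abhd5 of its group, the lowest muscle fibre marker sum of the series and its group's highest adipocyte and macrophage marker sums. Its insulin was 2.19, in the range of the vehicle mice (0.464 to 3.46), where the other 13 Cort_ATGLi mice had 5.67 to 36.0. Results that rest on it are given with and without it. In whole muscle, fewer cells of a type and less RNA per cell cannot be told apart.

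The stretches just before the RefSeq transcription start are shown for 4 genes that rose with corticosterone on both diets and for Mgll, which was lower on both diets. Each line gives the 250 bases before the start, 5′ to 3′ on the gene's strand, from RefSeq on build GRCm38.p6. Capitals mark matches to 6 short motifs: the glucocorticoid receptor core AGAACA, the nuclear receptor core AGGTCA, the FOXO words GTAAACA and ATAAACA, the E-box CACGTG, the GC box GGGCGG (these on both strands) and the TATA words TATAAA and TATAAG (gene strand only). No 2 matches overlap in the 5 stretches shown. The Pnpla2 stretch is chr7:141454938-141455187 on the plus strand, that of G0s2 is chr1:193273189-193273438 on the minus strand, and that of Plin4 is chr17:56109783-56110032 on the minus strand. The first of the Plin5 starts gave chr17:56117549-56117798 on the minus strand, and the first of the Mgll starts gave chr6:88724162-88724411 on the plus strand.
Pnpla2: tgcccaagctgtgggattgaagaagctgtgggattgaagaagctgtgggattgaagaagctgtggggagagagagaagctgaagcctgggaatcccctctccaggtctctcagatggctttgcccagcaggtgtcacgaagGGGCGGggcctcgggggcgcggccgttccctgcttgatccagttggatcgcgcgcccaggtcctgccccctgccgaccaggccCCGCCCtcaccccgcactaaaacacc
G0s2: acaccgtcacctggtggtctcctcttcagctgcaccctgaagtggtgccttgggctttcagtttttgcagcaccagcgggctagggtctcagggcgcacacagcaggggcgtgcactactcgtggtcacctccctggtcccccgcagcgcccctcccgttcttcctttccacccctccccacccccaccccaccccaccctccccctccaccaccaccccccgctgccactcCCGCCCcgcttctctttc
Plin4: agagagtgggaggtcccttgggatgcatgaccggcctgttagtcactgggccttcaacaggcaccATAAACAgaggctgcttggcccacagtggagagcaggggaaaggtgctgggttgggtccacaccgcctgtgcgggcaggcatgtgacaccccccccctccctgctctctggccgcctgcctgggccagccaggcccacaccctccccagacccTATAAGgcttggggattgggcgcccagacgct
Plin5: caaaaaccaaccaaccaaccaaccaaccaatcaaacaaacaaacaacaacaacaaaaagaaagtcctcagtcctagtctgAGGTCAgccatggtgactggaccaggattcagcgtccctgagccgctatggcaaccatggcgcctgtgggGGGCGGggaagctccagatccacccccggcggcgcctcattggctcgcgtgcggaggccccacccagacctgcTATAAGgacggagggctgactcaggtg
Mgll: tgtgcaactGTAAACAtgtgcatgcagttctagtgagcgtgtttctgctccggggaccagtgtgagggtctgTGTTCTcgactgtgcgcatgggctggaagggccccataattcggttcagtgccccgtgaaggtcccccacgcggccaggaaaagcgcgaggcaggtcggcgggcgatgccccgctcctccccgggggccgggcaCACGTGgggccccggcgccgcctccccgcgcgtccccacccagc

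All 9 genes had at least 1 such stretch in RefSeq, 12 in all. AGAACA, which 16.1% of all 32851 stretches of this length hold, was matched only in that of Mgll among the 12, as TGTTCT with its first base at -178 counted from the start. No match says only that these letters are not in these 250 bases. Plin4 held ATAAACA at -185 (a FOXO word is in 7.1% of all stretches). Mgll, which was lower with corticosterone, held the FOXO word GTAAACA at -241, and a stretch of Lipe held it as TGTTTAC at -119. Plin4 held TATAAG at -32 and Plin5 held it at -27 (a TATA word is in 11.2%). Plin5 also held AGGTCA at -170 (14% of all stretches) and a GC box at -100. AGGTCA was matched, as TGACCT, in Abhd5 at -69 and in Plin2 at -218 too. A link of these matches with the changes was not tested. Pnpla2 had GC boxes at -109 and -26 and G0s2 had 1 at -18 (32.7% of all stretches hold one). Plin4 and Plin5 are neighbours on chromosome 17, on the same strand, with 1797 bases between them in the GENCODE annotation of GRCm38, and Plin3 lies 159879 bases beyond Plin5.

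With corticosterone on the control diet, 8 of the 9 genes differed between Cort_CON and EtOH_CON. The lipase Pnpla2, its inhibitor G0s2, Lipe, Plin3, Plin4 and Plin5 rose, Mgll and Plin2 fell, and Abhd5 did not pass the test. The test was edgeR's quasi-likelihood test with Benjamini-Hochberg adjustment over all 12592 genes, at a threshold of 0.05, and adjusted p-values without another tool's name are from it. Of all genes tested, 18.9% were called higher and 19.5% lower in this comparison, and the members' 6 higher and 2 lower are to be read against those shares. The median log2 fold change of the 9 was 0.97, with 0.00 over all genes tested. On atglistatin, 5 of the 9 rose (Pnpla2, G0s2, Plin3, Plin4 and Plin5) and 1 fell (Mgll) in Cort_ATGLi against EtOH_ATGLi, where 15% of all genes were called higher and 15% lower. The median of the 9 was 0.90 there.

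Pnpla2 (chromosome 7, 141455198 to 141460743, plus strand) encodes ATGL itself, the target of the inhibitor. Its level was 228 CPM at the lowest, 303 at the median and 666 at the highest in Cort_ATGLi, and 215, 265 and 697 CPM in Cort_CON. It was 126, 167 and 201 CPM in EtOH_ATGLi, and 123, 149.9 and 185 CPM in EtOH_CON. Every corticosterone library lay above every vehicle library on both diets. The share of all genes tested without such overlap was not counted, here or for the other members. The log2 fold change was 1.06 (SE 0.16, adjusted p = 2.53e-07) in Cort_CON against EtOH_CON and 0.96 (SE 0.15, adjusted p = 2.7e-06) in Cort_ATGLi against EtOH_ATGLi. Library p41 held the 666 CPM, and the next highest Cort_ATGLi library was at 349 CPM. Without p41 the log2 fold change on atglistatin was 0.84 (adjusted p = 3.04e-06). In Cort_CON, 3 libraries stood above 400 CPM, at 697, 459 and 418 CPM. The spread was widest there, with a coefficient of variation of 41.3%, against 14.4% in EtOH_CON.

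Neither diet comparison of Pnpla2 passed. The means were 329 ± 103 CPM in Cort_ATGLi and 321 ± 133 CPM in Cort_CON (SD, n = 14 each), a log2 fold change of 0.04 with a 95% interval of -0.23 to 0.31. In vehicle mice the means were 169 ± 23.7 CPM in EtOH_ATGLi and 154 ± 22.3 CPM in EtOH_CON (SD, n = 10 each), a log2 fold change of 0.13 with a 95% interval of -0.19 to 0.45. Without p41 the Cort_ATGLi mean was 303 ± 36.8 CPM (SD, n = 13), below that of Cort_CON, and the log2 fold change was -0.08. With p41 kept and p45 of Cort_CON left out, the log2 fold change was 0.18. The order of the corticosterone means thus turns on single libraries. Both corticosterone means lay above both vehicle means, and groups on the same water did not differ beyond their spread.

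G0s2 (chromosome 1, 193272161 to 193273217, minus strand) encodes the peptide that binds ATGL and blocks it. It reached 23.6, 56.3 and 127 CPM (lowest, median, highest) in Cort_ATGLi and 51.2, 87.3 and 124 CPM in Cort_CON. In vehicle mice it was 7.61, 14.96 and 29.6 CPM in EtOH_ATGLi and 8.84, 12.98 and 28.1 CPM in EtOH_CON. All Cort_CON libraries lay above all EtOH_CON libraries, and 13 of 14 Cort_ATGLi libraries lay above all EtOH_ATGLi libraries. The exception was p41, at 23.6 CPM. In edgeR its log2 fold change was 2.51 (SE 0.24, adjusted p = 6.86e-12) in Cort_CON against EtOH_CON, a 5.69-fold difference. On atglistatin it was 2.03 (SE 0.23, adjusted p = 2.26e-09), a 4.09-fold difference.

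Under corticosterone, G0s2 was on average lower with atglistatin, at 66.5 ± 28.1 CPM in Cort_ATGLi and 89.2 ± 22.3 CPM in Cort_CON (SD, n = 14 each), and 11 of 14 Cort_ATGLi libraries lay below the Cort_CON mean. That difference, -0.43 on the log2 scale (SE 0.19), did not pass over all genes (edgeR adjusted p = 0.349). In vehicle mice the means were 16.3 ± 6.29 CPM in EtOH_ATGLi and 15.7 ± 6.82 CPM in EtOH_CON (SD, n = 10 each). G0s2 lies wholly inside Lamb3 on the opposite strand, and whether reads were counted by strand is not stated in the sources used here, so reads of both cannot be told apart. Lamb3 itself averaged 0.79 CPM in Cort_ATGLi, 1.20 CPM in Cort_CON, 0.70 CPM in EtOH_ATGLi and 0.85 CPM in EtOH_CON.

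Abhd5 (chromosome 9, 122351608 to 122381524, plus strand), the activator of ATGL, stayed within a narrow range. Its lowest, median and highest levels were 22.0, 28.3 and 40.5 CPM in Cort_ATGLi and 23.1, 28.9 and 34.02 CPM in Cort_CON. They were 28.9, 31.9 and 35.7 CPM in EtOH_ATGLi and 29.5, 31.4 and 37.3 CPM in EtOH_CON. The groups overlapped, but 8 of 14 Cort_CON libraries lay below every EtOH_CON library and 8 of 14 Cort_ATGLi libraries lay below every EtOH_ATGLi library. Its changes on the log2 scale were -0.16 (95% interval -0.31 to -0.0049, adjusted p = 0.104) in Cort_CON against EtOH_CON and -0.15 (95% interval -0.30 to 0.01, adjusted p = 0.154) in Cort_ATGLi against EtOH_ATGLi. Neither passed, and the intervals leave out a rise of the size of Pnpla2 or G0s2. Without library p24 of Cort_ATGLi, its group's highest, the second passed, at -0.19 (adjusted p = 0.043). Set side by side on the control diet, the log2 fold changes of the enzyme, its inhibitor and its activator were 1.06, 2.51 and -0.16; differences between the genes were not tested.

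Lipe (chromosome 7, 25379527 to 25398710, minus strand), the hormone-sensitive lipase, passed the test on the control diet and not on atglistatin. It was at 10.7, 18.8 and 34.7 CPM (lowest, median, highest) in Cort_ATGLi and 16.6, 20.6 and 26.4 CPM in Cort_CON. Vehicle mice had 12.2, 15.8 and 27.7 CPM in EtOH_ATGLi and 11.9, 14.7 and 29.001 CPM in EtOH_CON. All 14 Cort_CON libraries exceeded the EtOH_CON mean, yet the groups overlapped, with library p10 of EtOH_CON, at 29.001 CPM, above all of them. Lipe rose by 0.37 on the log2 scale (SE 0.14, adjusted p = 0.0276). The call was lost without any 1 of p01, p02, p04 or p15 of EtOH_CON or p35 of Cort_CON (adjusted p = 0.0527 to 0.067), and with only the 5 nondiabetic Cort_CON mice (0.26, adjusted p = 0.358). On atglistatin the log2 fold change was 0.16 (SE 0.14, adjusted p = 0.422), or 0.07 (adjusted p = 0.731) without p41, and the difference between the diets' responses did not pass (-0.22, SE 0.19, edgeR adjusted p = 0.999).

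Library p10 of EtOH_CON also had the highest adipocyte marker sum of its group, as did p14 of EtOH_ATGLi and p41 of Cort_ATGLi, and each carried its group's highest Lipe. In Cort_CON the highest adipocyte marker sum was in p30, that of Adipoq and Plin1 alone in p27, and the highest Lipe in p35. The part of fat cells in the Lipe values was not tested beyond a fit with the level of Adipoq and Plin1 as a covariate, in which no call of the 9 genes changed.

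Mgll (chromosome 6, 88724412 to 88828360, plus strand), which releases the last fatty acid, was lower with corticosterone on both diets. Its lowest, median and highest levels were 32.5, 40.7 and 58.0 CPM in Cort_ATGLi and 30.7, 44.7 and 57.5 CPM in Cort_CON. In vehicle mice they were 40.2, 47.1 and 61.5 CPM in EtOH_ATGLi and 34.2, 52.0 and 70.0 CPM in EtOH_CON. The groups overlapped, with 13 of 14 corticosterone libraries below the vehicle mean on each diet. Its log2 fold change was -0.35 (SE 0.10, adjusted p = 0.00371) on the control diet and -0.25 (SE 0.10, adjusted p = 0.0497) on atglistatin. The second call sits at the threshold. It was lost in 13 of the 24 fits that each left out 1 library of these groups (p14, p17, p18, p25, p38, p40, p42 and p48 of Cort_ATGLi, and p09, p10, p11, p13 and p14 of EtOH_ATGLi), with adjusted p between 0.0503 and 0.117.

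The counted gene Gm44005 lies inside Mgll on the same strand, and it averaged 1.60 CPM in Cort_ATGLi, 1.60 CPM in Cort_CON, 1.31 CPM in EtOH_ATGLi and 1.53 CPM in EtOH_CON.

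**Figure D1:**
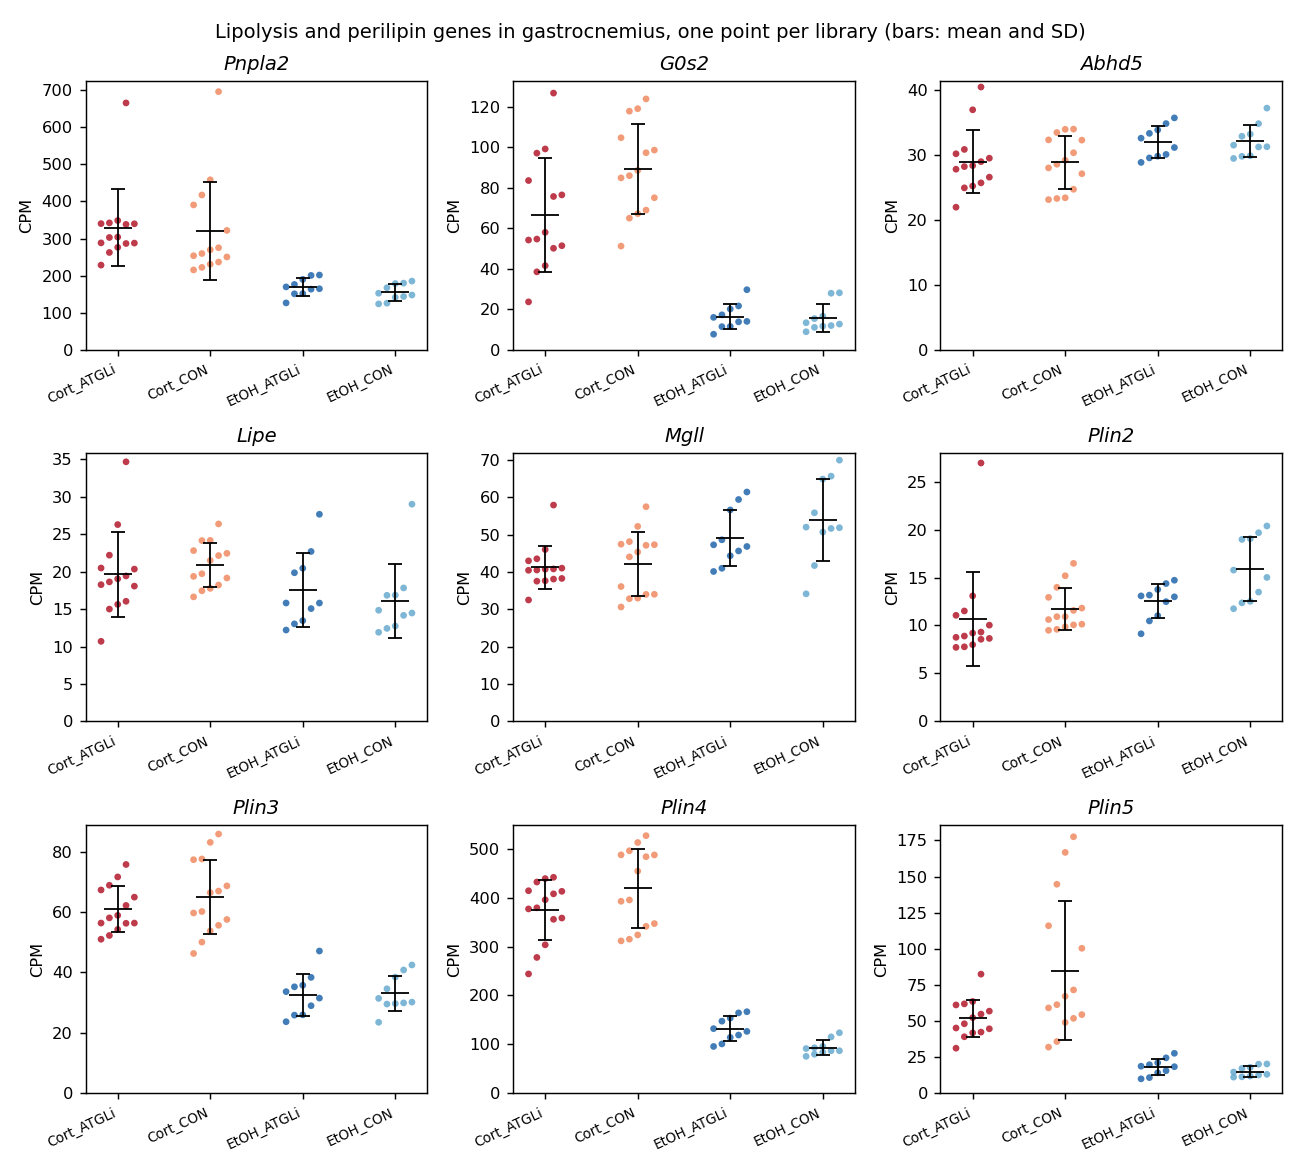
Level in CPM (vertical axes, each from 0) of the 9 genes in every library, by group from left to right Cort_ATGLi, Cort_CON, EtOH_ATGLi and EtOH_CON; points are libraries, black bars the mean and SD. Pnpla2, Plin3, Plin4 and Plin5 were higher in every corticosterone library than in every vehicle library of the same diet, and 1 Cort_ATGLi library (p41) stands alone at 666 CPM of Pnpla2 and 26.9 CPM of Plin2. The share of all genes without overlap between these groups was not counted.

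Among the perilipins, Plin4 (chromosome 17, 56100591 to 56109803, minus strand) had the smallest p-value of the 9 genes in both corticosterone comparisons. Its lowest, median and highest levels were 244, 387 and 442 CPM in Cort_ATGLi and 312, 425 and 527 CPM in Cort_CON. They were 95.7, 129 and 167 CPM in EtOH_ATGLi and 75.5, 89.2 and 124 CPM in EtOH_CON. The corticosterone and vehicle libraries did not overlap on either diet. Plin4 rose by 2.17 on the log2 scale (SE 0.11, adjusted p = 6.91e-23) in Cort_CON against EtOH_CON and by 1.503 (SE 0.11, adjusted p = 1.31e-16) in Cort_ATGLi against EtOH_ATGLi, that is 4.50-fold and 2.83-fold.

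The smaller response of Plin4 on atglistatin came with a higher vehicle level and a lower corticosterone level. In vehicle mice Plin4 averaged 132 ± 25.3 CPM in EtOH_ATGLi and 93.2 ± 15.2 CPM in EtOH_CON (SD, n = 10 each). All 10 EtOH_ATGLi libraries lay above the EtOH_CON mean and 6 lay above every EtOH_CON library, though the groups overlapped. Their difference of 0.50 on the log2 scale (95% interval 0.28 to 0.72) missed the threshold over all genes (edgeR adjusted p = 0.0572). In corticosterone mice the means were 374 ± 61.2 CPM in Cort_ATGLi and 420 ± 80.9 CPM in Cort_CON (SD, n = 14 each), which differ by -0.17 on the log2 scale (SE 0.09) without passing (edgeR adjusted p = 0.494). The difference between the corticosterone responses on the 2 diets was -0.67 on the log2 scale (SE 0.15, 95% interval -0.96 to -0.38) and also missed the threshold (edgeR adjusted p = 0.0545).

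Both Plin4 results crossed the threshold under other settings. The vehicle difference passed with DESeq2's Wald test (adjusted p = 0.00874), with limma voom (adjusted p = 0.0339), on halved counts (adjusted p = 0.0382) and with only those 2 groups in the fit (adjusted p = 0.033), with log2 fold changes of 0.49 to 0.50. It also passed without p16 of EtOH_CON, or without p09 or p12 of EtOH_ATGLi (0.54 to 0.55). Over all fits with 1 library left out it was 0.46 to 0.55 (edgeR adjusted p = 0.0323 to 0.154). The difference of responses passed with DESeq2 (-0.66, adjusted p = 0.00913) and without any 1 of p15 or p16 of EtOH_CON, p09 or p12 of EtOH_ATGLi, or p27, p46, p49 or p50 of Cort_CON (-0.71 to -0.68). Over all fits with 1 library left out, this difference was -0.71 to -0.62 (edgeR adjusted p = 0.0251 to 0.179). The 3′ end of Plin4 shares 17 bases with Hdgfl2 on the opposite strand. Hdgfl2 averaged 25.4 CPM in Cort_ATGLi, 23.3 CPM in Cort_CON, 28.04 CPM in EtOH_ATGLi and 25.8 CPM in EtOH_CON, and did not pass in either corticosterone comparison (edgeR adjusted p = 0.224 on the control diet).

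Plin5 (chromosome 17, 56111601 to 56117596, minus strand) rose with corticosterone and was the most variable of the 9 genes in Cort_CON. It was at 31.2, 50.2 and 82.4 CPM (lowest, median, highest) in Cort_ATGLi and 31.9, 64.2 and 178 CPM in Cort_CON. In vehicle mice it was at 9.97, 18.5 and 27.7 CPM in EtOH_ATGLi and 11.1, 13.9 and 20.3 CPM in EtOH_CON. Corticosterone and vehicle libraries did not overlap on either diet. The log2 fold change was 2.50 (SE 0.24, adjusted p = 1.85e-11) in Cort_CON against EtOH_CON, a 5.65-fold difference, and 1.52 (SE 0.24, adjusted p = 1.69e-06) in Cort_ATGLi against EtOH_ATGLi, a 2.86-fold difference. The difference between these responses was -0.98 on the log2 scale (SE 0.32) and did not pass over all genes (edgeR adjusted p = 0.65).

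Under corticosterone, Plin5 averaged 51.8 ± 12.96 CPM in Cort_ATGLi and 84.8 ± 48.3 CPM in Cort_CON (SD, n = 14 each). All 14 Cort_ATGLi libraries lay below the Cort_CON mean, and 13 of the 14 were within the range of Cort_CON. That difference, -0.71 on the log2 scale (SE 0.20, 95% interval -1.11 to -0.32), missed the threshold (edgeR adjusted p = 0.057). It passed with DESeq2 (adjusted p = 0.0314) and when any 1 of 8 libraries was left out (p24 or p41 of Cort_ATGLi, or p27, p28, p29, p46, p49 or p50 of Cort_CON), at -0.78 to -0.74. Over all fits with 1 library left out it was -0.78 to -0.59 (edgeR adjusted p = 0.0262 to 0.135). It was smallest without p34 of Cort_CON. The coefficient of variation of Plin5 was 56.9% in Cort_CON and 25% in Cort_ATGLi.

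Plin3 (chromosome 17, 56277476 to 56292873, minus strand), a coat protein of nascent droplets, was higher with corticosterone on both diets. Its lowest, median and highest levels were 51.0, 58.5 and 75.7 CPM in Cort_ATGLi and 46.3, 63.3 and 85.8 CPM in Cort_CON. They were 23.7, 32.6 and 47.1 CPM in EtOH_ATGLi and 23.5, 30.8 and 42.5 CPM in EtOH_CON. Corticosterone and vehicle libraries did not overlap on either diet. Plin3 rose by 0.97 on the log2 scale (SE 0.10, adjusted p = 1.75e-11) in Cort_CON against EtOH_CON and by 0.90 (SE 0.10, adjusted p = 3.25e-10) in Cort_ATGLi against EtOH_ATGLi. With atglistatin the log2 fold change was -0.02 (95% interval -0.23 to 0.20) in vehicle mice and -0.09 (95% interval -0.27 to 0.09) in corticosterone mice.

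Plin2 (chromosome 4, 86648386 to 86670060, minus strand), the perilipin of most tissues, was the 1 perilipin that fell with corticosterone. It had 7.72, 9.05 and 26.9 CPM (lowest, median, highest) in Cort_ATGLi and 9.50, 10.9 and 16.5 CPM in Cort_CON. In vehicle mice it had 9.13, 13.04 and 14.7 CPM in EtOH_ATGLi and 11.8, 15.4 and 20.4 CPM in EtOH_CON. Of the 14 Cort_CON libraries, 13 lay below the EtOH_CON mean and 9 below every EtOH_CON library. Plin2 fell by 0.44 on the log2 scale (SE 0.14, adjusted p = 0.011) in Cort_CON against EtOH_CON, and with only the 9 diabetic Cort_CON mice the call was lost (log2 fold change -0.36, adjusted p = 0.0766).

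On atglistatin the call for Plin2 turned on p41. With it, the log2 fold change in Cort_ATGLi against EtOH_ATGLi was -0.22 (SE 0.14, adjusted p = 0.262). Without p41, whose 26.9 CPM stood beside 13.1 CPM in the next library, it was -0.41 (SE 0.11, adjusted p = 0.00223). Library p41 had 158 CPM of the macrophage markers in sum, against a median of 57.0 CPM in its group, and 75.5 CPM of Adipoq and Plin1 in sum, against a median of 30.7 CPM. The part of these cells in its Plin2 was not tested. In vehicle mice all 10 EtOH_ATGLi libraries had less Plin2 than the EtOH_CON mean, with a log2 fold change of -0.34 (SE 0.15) that did not pass over all genes (edgeR adjusted p = 0.685).

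**Figure D2:**
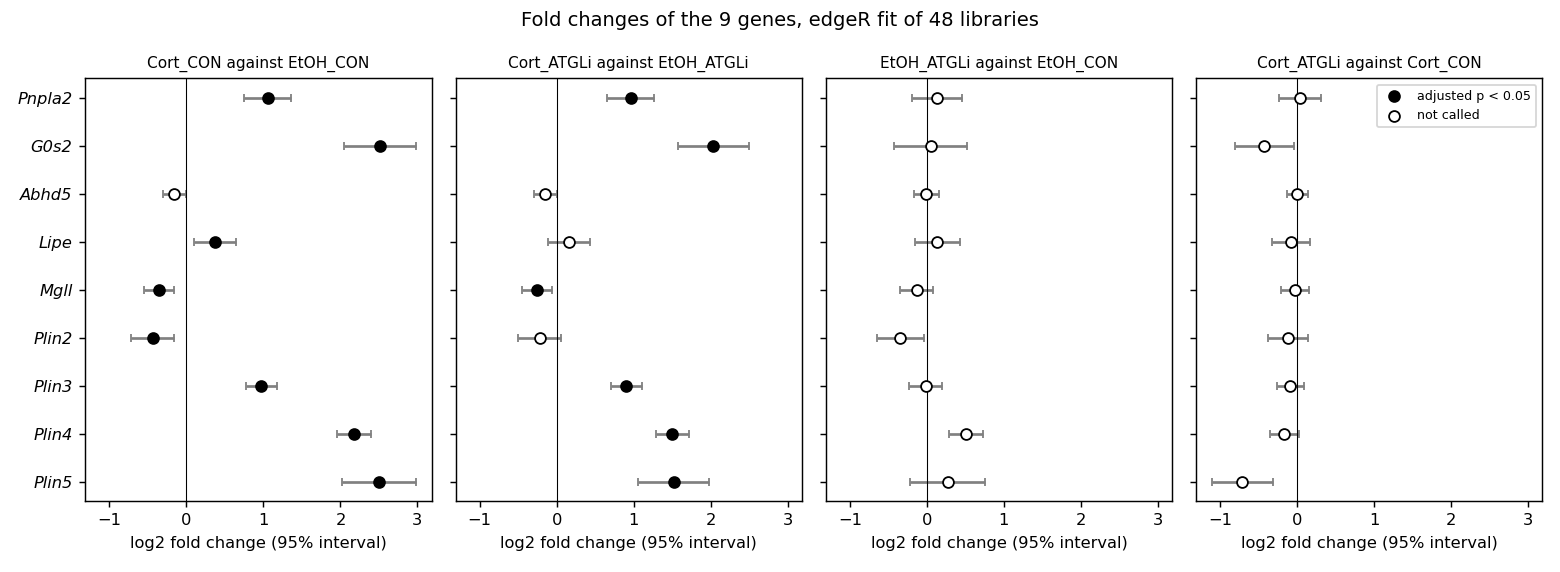
Log2 fold change (horizontal axis) with its 95% interval for the 9 genes in the 4 pairwise comparisons, from edgeR's fit of 48 libraries; filled points passed at adjusted p under 0.05 and open points did not. Corticosterone moved 8 genes on the control diet and 6 on atglistatin, and no point is filled in either comparison of diets.

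Atglistatin moved none of the 9 genes past the threshold under either water treatment. In EtOH_ATGLi against EtOH_CON, 0.0159% of all genes were called higher and 0.00794% lower, 3 of 12592 in all. In Cort_ATGLi against Cort_CON, 0.667% were called higher and 0.929% lower, 201 in all. At an unadjusted p under 0.05, 2 of the 9 differed in vehicle mice (Plin4 and Plin2), where 6.66% of all genes did. In corticosterone mice 2 did (Plin5 and G0s2), where 12.4% of all genes did. The G0s2 and Plin2 values in corticosterone mice depended on p41. Without p41, Plin2 had a log2 fold change of -0.31 (SE 0.098, edgeR adjusted p = 0.0884), against -0.12 with it. That of G0s2 was -0.36 without p41 (SE 0.18, edgeR adjusted p = 0.429). DESeq2 called Plin4 among 38 genes in vehicle mice and Plin5 among 269 in corticosterone mice. Limma voom called Plin4 among 30 genes in vehicle mice and none of the 9 among 172 in corticosterone mice. The test of the difference between the corticosterone responses on the 2 diets called 0.0238% of all genes higher, 0.0159% lower and none of the 9. DESeq2 called Plin4 among 18 genes, and at an unadjusted p under 0.05 there were 2 of the 9 (Plin4 and Plin5), with 5.52% of all genes. The pairwise comparisons share groups with one another, so their values for a gene are not independent.

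Within Cort_CON, none of the 9 genes separated the 9 mice labelled diabetic from the 5 labelled nondiabetic. No gene of the table was called in either direction by edgeR (0% higher and 0% lower), with 625 of 12592 at an unadjusted p under 0.05 and none of them among the 9. DESeq2 and limma voom called none of the 9 either, and leaving out p36 gave none. The gene with the smallest p was Mgll, at 44.6 ± 8.45 CPM in diabetic mice (SD, n = 9) and 37.8 ± 7.36 CPM in nondiabetic mice (SD, n = 5), a log2 fold change of 0.24 with a 95% interval of -0.02 to 0.51 (edgeR adjusted p = 0.968). The wide spread of Plin5 was present in both. Its lowest, median and highest levels were 35.8, 61.3 and 178 CPM in diabetic mice, while the 5 nondiabetic mice had 31.9, 54.4, 71.5, 145 and 167 CPM. The Cort_CON libraries with the lowest insulin, p33, p32 and p34 (9.31, 14.5 and 16.8), had the group's highest Plin5, at 145, 167 and 178 CPM. Library p49, next in insulin at 27.7, had the lowest Plin5, at 31.9 CPM. This was seen in the values, and a relation with insulin in Cort_CON was not tested.

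Other genes of droplets and triglyceride synthesis were read from a list of 56, of which 48 were tested. On the control diet 16 of the 48 rose (33.3%) and 4 fell (8.33%), where 18.9% of all genes rose and 19.5% fell. On atglistatin 14 rose (29.2%) and 2 fell (4.17%), where 15% of all genes did each. The medians of the list were 0.08 and 0.05 on the log2 scale, with 0.00 over all genes tested in both. Pnpla3, a lipase of the same family as ATGL, averaged 12.3 ± 4.73 CPM in Cort_ATGLi and 1.70 ± 0.84 CPM in EtOH_ATGLi (log2 fold change 2.87, SE 0.25). On the control diet it averaged 17.7 ± 4.93 CPM in Cort_CON and 2.49 ± 0.93 CPM in EtOH_CON (2.83, SE 0.24, adjusted p = 1.6e-13). Acsl3, an acyl-CoA synthetase of the droplet surface, rose by 1.23 (SE 0.14) on the control diet and by 1.07 (SE 0.14) on atglistatin. Abhd6, another monoacylglycerol hydrolase, rose by 0.88 (SE 0.13) on the control diet, and Aup1, a droplet protein, rose by 0.48 (SE 0.08) on atglistatin.

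A few further members of this list were chosen after their values were seen. Dgat2, which makes triglyceride from diacylglycerol, rose by 0.91 on the control diet and by 0.76 on atglistatin. The droplet protein Cidea rose by 0.96 on the control diet and by 1.11 on atglistatin. Sqle, a sterol synthesis enzyme, fell by 1.66 on the control diet and by 1.30 on atglistatin. Under corticosterone, the 1 gene of the list that differed between diets was Agpat2, at 6.20 ± 1.60 CPM in Cort_ATGLi and 9.89 ± 3.41 CPM in Cort_CON (log2 fold change -0.68, SE 0.16, adjusted p = 0.0129). None was called in vehicle mice, where edgeR called 3 genes in all.

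Of 35 genes of the hormone signalling that controls lipolysis, 29 were tested. On the control diet 6 rose (20.7%) and 5 fell (17.2%), near the 18.9% and 19.5% of all genes, and on atglistatin 4 rose and 4 fell (13.8% each), near the 15% of all genes. The list's medians were 0.07 and 0.04 on the log2 scale. On the control diet the 11 called became 7 without p02 of EtOH_CON and 3 with only the 5 nondiabetic Cort_CON mice. Irs1, an adaptor of the insulin receptor, averaged 26.3 ± 7.79 CPM in Cort_CON and 80.7 ± 13.4 CPM in EtOH_CON (log2 fold change -1.61, SE 0.14, adjusted p = 6.88e-14), and fell by 1.27 on atglistatin. Pde4a, a phosphodiesterase that degrades cyclic AMP, fell by 1.26 (SE 0.12) on the control diet and by 1.10 (SE 0.12) on atglistatin. Npr3, the clearance receptor of natriuretic peptides, rose by 1.51 (SE 0.19) on the control diet and by 1.43 (SE 0.19) on atglistatin. Under corticosterone, 2 genes were higher with atglistatin: Adcy2, an adenylyl cyclase, by 0.23 (SE 0.06, adjusted p = 0.0345) and the kinase Akt1 by 0.28 (SE 0.07, adjusted p = 0.0189). The Adcy2 call was lost with only the 2 groups in the fit (adjusted p = 0.0708) and without any 1 of 9 libraries (p17, p38, p42 or p47 of Cort_ATGLi, or p30, p32, p33, p34 or p35 of Cort_CON; adjusted p up to 0.0707), and both were lost against the 5 nondiabetic Cort_CON mice alone.

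All 30 transcription regulators reported to act on ATGL or perilipin genes were tested. On the control diet 10 rose (33.3%) and 4 fell (13.3%), where 18.9% of all genes rose and 19.5% fell. On atglistatin 9 rose (30%) and 4 fell (13.3%), where 15% of all genes did each. The list's medians were 0.10 and 0.11 on the log2 scale. Foxo1, a forkhead factor restrained by insulin signalling, averaged 138 ± 38.7 CPM in Cort_ATGLi and 28.7 ± 9.42 CPM in EtOH_ATGLi (log2 fold change 2.26, SE 0.17). On the control diet it averaged 176 ± 44.5 CPM in Cort_CON and 23.4 ± 2.73 CPM in EtOH_CON (2.91, SE 0.17, adjusted p = 5.83e-19). Foxo3, a related factor, rose by 1.29 (SE 0.12) on the control diet and by 1.02 (SE 0.12) on atglistatin. Nr1h3, a nuclear receptor for oxysterols, rose by 1.21 (SE 0.10) on the control diet and by 0.90 (SE 0.10) on atglistatin. Among those chosen after their values were seen, Klf15 rose by 1.05 on the control diet and by 0.74 on atglistatin, and Ppara rose by 0.87 on the control diet. The glucocorticoid receptor gene Nr3c1 fell by 0.24 on the control diet and by 0.31 on atglistatin. None of the 30 differed between diets under either water treatment.

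Markers of other cells were set beside these results because fat cells express all of the lipases. The 9 adipocyte markers summed to a median of 385 CPM (221 to 869) in Cort_ATGLi, 360 CPM (246 to 545) in Cort_CON, 404 CPM (278 to 630) in EtOH_ATGLi and 474 CPM (306 to 818) in EtOH_CON. Of these, Fabp4 alone averaged 266 CPM over the 2 control-diet groups and 247 CPM over the 2 atglistatin groups. Adipoq and Plin1 had median sums of 30.7 CPM in Cort_ATGLi, 29.6 in Cort_CON, 21.0 in EtOH_ATGLi and 26.2 in EtOH_CON. The defining markers Adipoq and Plin1 were above 0 in every library and were not called in any comparison. Adipoq had log2 fold changes of 0.14 (adjusted p = 0.735) on the control diet and 0.69 (adjusted p = 0.0586) on atglistatin. In Cort_CON against EtOH_CON, 2 of the 9 markers rose (Lep and Thrsp, 22.2%) and 3 fell (Cfd, Adrb3 and Fabp4, 33.3%). Of all genes, 18.9% rose and 19.5% fell. Adrb3 averaged only 0.59 CPM over these 2 groups. On atglistatin 2 rose (Lep and Cidec, 22.2%), where 15% of all genes did. Under corticosterone Thrsp was lower with atglistatin, as were 0.929% of all genes. Plin1, Cidec and Fabp4 are also in the droplet list and Adrb3 is in the signalling list. With the Adipoq and Plin1 level as a covariate, every call of the 9 genes in the 6 comparisons was as without it.

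Macrophage, endothelial and fibro-adipogenic markers moved with corticosterone. Of all genes tested, 18.9% rose and 19.5% fell on the control diet, and 15% did each on atglistatin. Of 7 macrophage markers 5 fell on each diet, of 5 endothelial markers 4 fell on each diet, and of 5 fibro-adipogenic markers 4 fell on the control diet and 5 on atglistatin. Of the 10 muscle fibre markers, 4 rose and 2 fell on the control diet and 3 rose and 2 fell on atglistatin, with Myl1 and Pvalb lower on both. Those that fell, 20% on each diet, were near the shares of all genes. Slow fibre markers had 2 of 7 higher on the control diet (Tnni1 and Myl2) and 3 of 7 on atglistatin (Tnnt1, Tnni1 and Myl2). Of 4 haemoglobin genes, 4 rose on the control diet and 1 on atglistatin. The part of these shifts in the 9 genes was not tested.

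Within the groups, the genes also varied together from mouse to mouse. After each group's mean was removed, 14 of the 36 pairs passed a permutation test within groups (100000 resamples, two-sided, adjusted over the 36 pairs), 11 positive and 3 negative, and 17 had an unadjusted p under 0.05. With Spearman's rho 6 of these 14 passed, all positive. The 5 positive pairs that did not were Pnpla2 with Lipe, Pnpla2 with Plin2, Lipe with Plin2, Lipe with Plin4 and Plin2 with Plin3. The strongest was Pnpla2 with Plin5, with Pearson's r = 0.71 (permutation p = 1e-05, which is the lowest 100000 resamples allow, and adjusted p = 0.00036) and Spearman's rho = 0.77 (permutation adjusted p = 0.00036). Within single groups r was 0.55 in Cort_ATGLi, 0.80 in Cort_CON, 0.80 in EtOH_ATGLi and 0.56 in EtOH_CON. Without the 2 libraries farthest from the median of Pnpla2 it was 0.81.

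Plin4 with Plin5 had r = 0.57 (permutation p = 8e-05, adjusted p = 0.00096) and rho = 0.55 (permutation adjusted p = 0.00162), and r = 0.55 without the 2 farthest libraries. That relation was uneven, with r = 0.18 in Cort_ATGLi, 0.88 in Cort_CON, 0.65 in EtOH_ATGLi and 0.04 in EtOH_CON. Pnpla2 with Plin4 had r = 0.54 (permutation p = 0.00019, adjusted p = 0.00171) and rho = 0.59 (permutation adjusted p = 0.00054), and r = 0.59 without the 2 farthest.

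G0s2 with Abhd5, the inhibitor and the activator of ATGL, had r = 0.60 (permutation p = 2e-05, adjusted p = 0.00036) and rho = 0.57 (permutation adjusted p = 0.000792). It was positive in each group, at 0.82 in Cort_ATGLi, 0.58 in Cort_CON, 0.49 in EtOH_ATGLi and 0.33 in EtOH_CON, and r = 0.48 remained without the 2 farthest libraries. Pnpla2 with G0s2 had r = -0.18 (permutation adjusted p = 0.315) and rho = -0.03. The 3 negative pairs were G0s2 with Lipe (r = -0.44), Abhd5 with Lipe (-0.38) and Abhd5 with Plin4 (-0.44). None of the 3 passed with Spearman's rho (permutation adjusted p = 0.0764, 0.129 and 0.0977).

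Lipe with Mgll had r = 0.49 (permutation p = 0.0003, adjusted p = 0.00216) and rho = 0.55 (permutation adjusted p = 0.000792), and r = 0.49 without the 2 farthest libraries. Mgll with Plin2 had r = 0.48 (permutation p = 0.00058, adjusted p = 0.00348) and rho = 0.55 (permutation adjusted p = 0.000792), and r = 0.42 without the 2 farthest. Without p41 of Cort_ATGLi and p01 of EtOH_CON, 8 of the 36 pairs passed. The 6 lost were Pnpla2 with Plin2, G0s2 with Lipe, Abhd5 with Lipe, Lipe with Plin2, Lipe with Plin4 and Plin2 with Plin3. The pair Pnpla2 with Plin5 had r = 0.75 without those libraries. All pairs share libraries and their depth, and the values are levels of 3′ end counts in the same RNA.

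**Figure D3:**
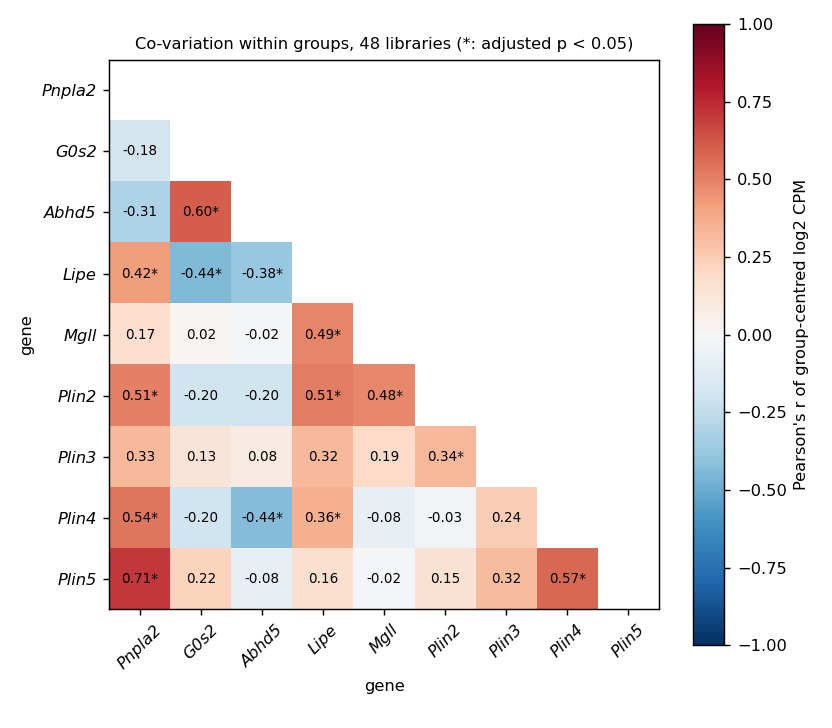
Pearson's r of group-centred log2 CPM for the 36 pairs of the 9 genes over 48 libraries, with red for positive and blue for negative values; an asterisk marks adjusted p under 0.05 in the permutation test within groups. The highest value is 0.71 for Pnpla2 with Plin5, and G0s2 and Abhd5 form a positive pair at 0.60. The share of other gene pairs that would pass was not counted.

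**Figure D4:**
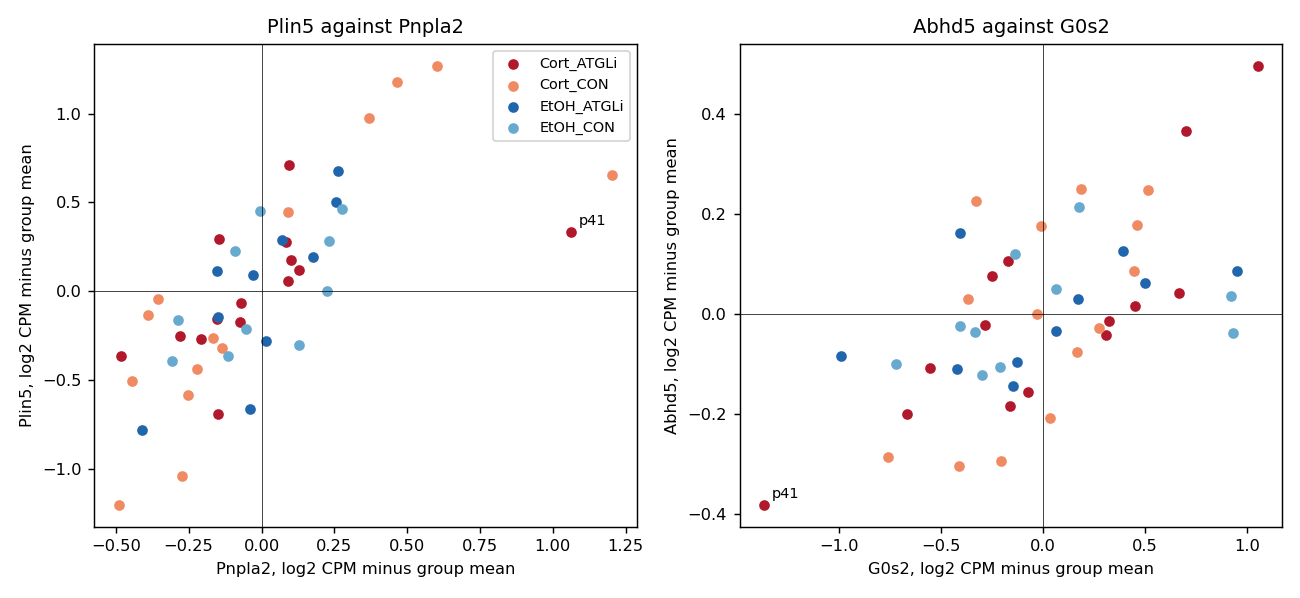
Plin5 against Pnpla2 (left) and Abhd5 against G0s2 (right), both axes in log2 CPM minus the group mean, 1 point per library coloured by group. The Cort_CON libraries span the widest range of Plin5, and p41 of Cort_ATGLi lies at high Pnpla2 and at the lower left of the G0s2 and Abhd5 panel.

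Among the 7617 genes that averaged 5 CPM or more, those whose group-centred log2 CPM was most like each member's over the 48 libraries were also listed, as a description with no test. For Pnpla2 these were Acss1 (r = 0.90), Egln3 (0.84) and Twf2 (0.83). For Plin4 they were Cdkn1a (0.83), Fkbp5 (0.81) and Tsc22d1 (0.77), and for Plin5 they were Slc25a34 (0.83), Acot2 (0.79) and Retsat (0.79). For G0s2 they were Atp5g3 (0.74), Uqcrfs1 (0.73) and Phyh (0.71), and for Abhd5 they were Atp5o (0.77), Cisd1 (0.74) and Cox5a (0.74). For Lipe they were Slc1a5 (0.72), Cidec (0.72) and Myo1c (0.70), for Mgll Fam13a (0.64), Tmod3 (0.62) and Mapre1 (0.60), for Plin2 C1qb (0.77), Rhoc (0.76) and Ehd4 (0.75), and for Plin3 Gbe1 (0.65), Got2 (0.62) and H19 (0.61). These values are Pearson's r with p41 included, and the lists were not made again without p41. Spearman's rho was lower for the Plin2 genes, at 0.62, 0.56 and 0.50 in the same order. For the Pnpla2 genes it was 0.79, 0.71 and 0.69. Egln3 is an oxygen-sensing prolyl hydroxylase, Acss1 a mitochondrial acetyl-CoA synthetase and Acot2 a mitochondrial acyl-CoA thioesterase. Fkbp5 is a co-chaperone of the glucocorticoid receptor, and C1qb is a complement gene of macrophages.

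Insulin and fed glucose are given per mouse in the labels, without units. The 9 genes were related to both in Cort_ATGLi, the group of 14 that holds no split by disease state. None of the 18 relations passed (permutation tests with 100000 resamples), and none had an unadjusted p under 0.05. The highest was Plin3 with insulin, at r = 0.48 (permutation p = 0.084, adjusted p = 0.599) and rho = 0.44, with r = 0.28 without the 2 farthest mice. Library p41 had the group's highest Plin3 and its lowest insulin. In the other 13 mice r was 0.87 and rho 0.80, given as a description, since p41 was set aside with both of its values known.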

How the data were processed

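RNA from mixed gastrocnemius was sequenced as 50 bp forward reads of QuantSeq 3′ libraries, per the labels' protocols. The deposited table holds raw counts, whole numbers per gene. The genome build was GRCm38, and the authors used R 3.6.1 and DESeq2 1.24.0, per the submitters' processing notes. The aligner, counter and strand setting are not stated in the sources used here, nor is the annotation. In 47 of 48 libraries every deposited count was even, and p13 of EtOH_ATGLi was the exception; counts were tested as deposited, and halved counts were an alternative. Read counts without molecular identifiers are not independent molecules.

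Genes were kept by filterByExpr over the 4 groups (minimum count 10, minimum total 15), which removed 1533. Libraries were scaled by TMM. All 48 were fitted together with edgeR 4.0.16's robust quasi-likelihood test in R 4.3.3, two-sided, with Benjamini-Hochberg adjustment over 12592 genes and a threshold of 0.05; disease state was tested in a second fit of the same genes with Cort_CON split. CPM values, means and SDs were computed from the deposited counts, and log2 CPM used a prior count of 2. Alternatives were DESeq2 1.42.0, limma 3.58.1 voom, other scaling and filtering, a fat marker covariate, subsets of mice and each library left out. The edgeR, voom and DESeq2 steps were tested on simulated data. Replicates of a group were not duplicates: over 272 pairs, chi-square divided by its degrees of freedom was never below 7.03.

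The members and the lists of other genes were chosen with earlier results of these data known. Named list genes were the 3 with the smallest p per list and comparison, among those called at a mean of at least 1 CPM. The 3 genes most like each member were also named. All adipocyte markers called were named, whatever their level. Other genes of the lists are said to be chosen after their values were seen. Gene positions are from GENCODE, sequences from RefSeq.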

Additional observations from a re-analysis of the deposited data

Results flagged for a closer look

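Among 36 tests for a stray library (9 genes in EtOH_ATGLi, EtOH_CON and the diabetic and nondiabetic parts of Cort_CON), 1 stood apart: Lipe in p10 of EtOH_CON, at 29.001 CPM with the next library at 17.8 CPM. The gap was 0.548 of the group's range on the log2 scale, above Dixon's 95% critical value for 10 libraries. Chance flags about 1 in 20 such groups. That library also had its group's highest adipocyte marker sum. Without it the log2 fold change of Lipe in Cort_CON against EtOH_CON was 0.50, against 0.37 with it. The test was run only in sets of up to 10 libraries, so p41 of Cort_ATGLi was not tested by it.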

How the results depend on the processing

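No value that passed its test changed direction under any alternative run. The count of the 9 genes called was 1 (Plin4) rather than 0 in EtOH_ATGLi against EtOH_CON with DESeq2, limma voom, halved counts and only those 2 groups in the fit, 1 (Plin5) rather than 0 in Cort_ATGLi against Cort_CON with DESeq2, and 1 (Plin4) rather than 0 for the difference of responses with DESeq2. Leaving out 1 library at a time gave 0 to 1 called in each of these 3, 7 to 8 in Cort_CON against EtOH_CON, 5 to 7 in Cort_ATGLi against EtOH_ATGLi and 0 for disease state. Without p41, set aside with its values known, 1 relation with insulin had an adjusted p under 0.05, and without p41 and p01, 8 pairs passed. Of 468 values of single genes under other tools, scalings, filters, covariates and subsets of mice, 10 changed sides of the threshold; Mgll on atglistatin was one, with limma voom (adjusted p = 0.0532). The cause was not tested. All genes called in EtOH_ATGLi against EtOH_CON numbered 3, but 38 with DESeq2, 30 with limma voom, 20 on halved counts, 38 with only the 2 groups and 1 to 21 with a library left out. For the difference of responses they numbered 5, but 18 with DESeq2, 8 without p01 and p41 and 2 (without p14 of EtOH_ATGLi) to 7 with a library left out, and in Cort_ATGLi against Cort_CON 201, but 78 with only the 2 groups and 125 to 354 with a library left out. Whether replicate numbers shared between groups pair the libraries could not be decided, as only 4 and 2 numbers are shared. Correlations of same-numbered deviations were 0.09, 0.15, -0.00 and -0.06 in the vehicle groups and 0.04 and -0.02 in the atglistatin groups. The library's own number was the best match for p10 in the former and p13 in the latter. With the number as a replicate block in the shared libraries alone, 0 of the 9 genes were called in EtOH_ATGLi against EtOH_CON (21 genes in all, and 0 in the same libraries without the block, a fit added after seeing the data) and 6 in Cort_ATGLi against EtOH_ATGLi (1880 in all, and 1555 without the block).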
